A study of Homo sapiens with 4 samples.

Results

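hsa-miR-22 and hsa-miR-22*, the guide and passenger arms of the miR-22 hairpin, are 2 of the 1733 mature miRNAs counted in small RNA libraries of hepatoma cells and of the stem-like cells grown from them. Both were chosen by name with their counts in these same libraries already known, and the change of both arms within each pair was part of that choice. These changes are therefore described here and carry no test. Each cell population had 1 library, so no difference has a replicate check, and the 95% intervals given below cover counting error only. Hep3B and Huh7, both hepatoma cell lines, were the parent populations (HCC cells). Hep3B-C and Huh7-C are the hepatic cancer stem cells (HCSCs) enriched in culture from each of them. No allele, transgene or drug treatment is named for any of the 4 populations, and the culture, passage and number of clones behind each library were not given in the sources used here. Deposited miRNA counts summed to between 1739278 (Hep3B) and 5741567 (Huh7), and made up 10.4% (Hep3B), 35.2% (Hep3B-C), 54.1% (Huh7) and 37.8% (Huh7-C) of the total reads. Levels are given as TPM, which is counts for every 1000000 total reads sequenced in that library.

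A miRNA hairpin is cut to a short duplex of both its arms. The guide arm is usually kept by an Argonaute protein, which it directs to messenger RNAs through the bases of its seed, while the passenger arm is mostly released and degraded. The balance of the arms in a library is thus a separate property from the amount of the hairpin. miR-22 is a conserved miRNA carried in an exon of a long noncoding RNA, MIR22HG, and it has been studied as a restraint on growth in liver cancer. Both arms are shown first, since they come from 1 precursor but do not share a seed. The seed (bases 2 to 8) is in capitals.
hsa-miR-22: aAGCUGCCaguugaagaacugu
hsa-miR-22*: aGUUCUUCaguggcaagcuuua

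The sequences are those of RefSeq, where hsa-miR-22 is named hsa-miR-22-3p and hsa-miR-22* is named hsa-miR-22-5p. On the minus strand of chromosome 17 in GRCh38.p14, hsa-miR-22* lies at chr17:1713952-1713973 and hsa-miR-22 at chr17:1713914-1713935, with 16 bases between the arms. The deposited files hold no coordinates. In GENCODE release 29, all 19 transcripts of MIR22HG (a lincRNA gene at chr17:1711493-1717174) hold both arms within an exon, which is exon 3 (chr17:1713703-1714014) in the transcript MIR22HG-201. No other mature miRNA of the RefSeq table had either seed, so neither arm has a family of the same seed among them. Folded against each other by RNAduplex, the arms formed 19 base pairs, 1 of them G-U, with an energy of -24.6 kcal per mol. The longest unbroken run was of 10 pairs, between bases 1 to 10 of hsa-miR-22* and bases 11 to 20 of hsa-miR-22. All 7 seed bases of each arm lay in a pair with the other arm. No other row had the same 4 counts as either arm, so neither row was a copy of another.

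The guide arm had 420 counts in Hep3B (25.03 TPM, 95% exact Poisson interval 22.7 to 27.5). It had 766 counts in Hep3B-C (49.6 TPM, interval 46.2 to 53.3). In Huh7 it had 3128 counts (294 TPM, interval 284 to 305), and in Huh7-C 524 counts (48.9 TPM, interval 44.8 to 53.3). With total reads as the library size, Huh7 thus stood apart at the top, Hep3B was lowest, and both HCSC libraries lay between them at nearly the same level. Scaled to miRNA counts, Hep3B was above both HCSC libraries. The intervals of the HCSC libraries overlapped and those of the parent lines did not.

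The passenger arm had 73 counts in Hep3B (4.35 TPM, interval 3.41 to 5.47) and 33 counts in Hep3B-C (2.14 TPM, interval 1.47 to 3.001). It had 654 counts in Huh7 (61.6 TPM, interval 56.9 to 66.5) and 19 counts in Huh7-C (1.77 TPM, interval 1.07 to 2.77). Both HCSC libraries were lower than both parent libraries, and their intervals overlapped each other but not those of the parents. By count, hsa-miR-22 ranked 107th of 674 detected miRNAs in Hep3B, 118th of 773 in Hep3B-C, while in Huh7 it was 61st of 712 and in Huh7-C 101st of 664. hsa-miR-22* ranked 199th, 316th, 113th and 298th in the same libraries. In Huh7 the miRNAs next to the guide arm in this order were hsa-miR-17 above and hsa-miR-25 below.

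**Figure D1:**
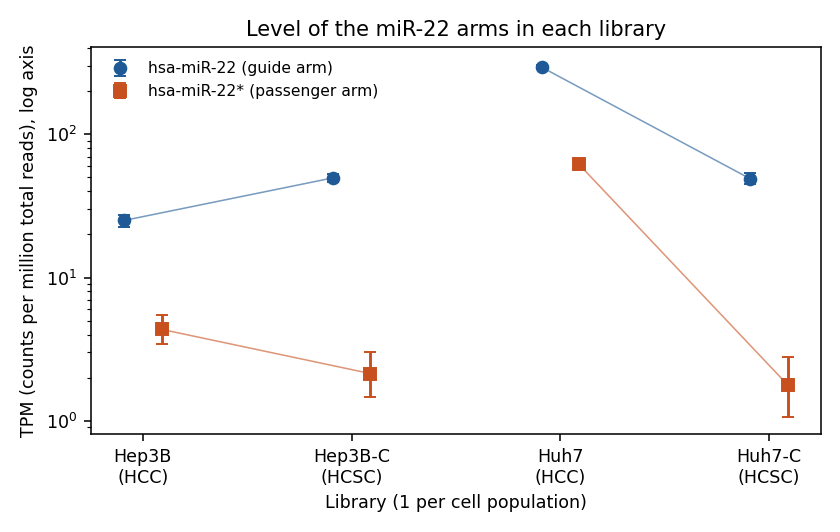
Level of hsa-miR-22 (circles) and hsa-miR-22* (squares) in each library, in TPM on a log axis. Bars are 95% exact Poisson intervals of 1 library each, and lines join an HCC library to its HCSC library. The guide arm is at 49.6 and 48.9 TPM in the HCSC libraries, between 25.03 TPM in Hep3B and 294 TPM in Huh7, while the passenger arm is lower in each HCSC library than in its parent.

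Within the Hep3B pair, the log2 fold-change (HCSC over HCC) was 0.99 for hsa-miR-22 (interval 0.81 to 1.16), a level 1.98 times as high in Hep3B-C. For hsa-miR-22* it was -1.03 (interval -1.66 to -0.41), a level 2.04 times as low. The arms of the same hairpin therefore lay on opposite sides of 0 when total reads served as the library size. Of all 427 miRNAs with a mean of at least 10 counts over this pair, 4.68% were lower by at least 2-fold and 65.3% higher by at least 2-fold in Hep3B-C. hsa-miR-22* was among the first of these groups, with 19 miRNAs lower still, and hsa-miR-22 was in neither. The median log2 fold-change of all 427 was 1.36, so both arms lay below it.

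Within the Huh7 pair, both arms were lower in the HCSCs. The log2 fold-change was -2.59 for hsa-miR-22 (interval -2.73 to -2.46), a level 6.02 times as low in Huh7-C. For hsa-miR-22* it was -5.12 (interval -5.86 to -4.46), a level 34.7 times as low. Of the 400 miRNAs with a mean of at least 10 counts over this pair, 35.2% were lower and 7.25% higher by at least 2-fold, with a median of -0.65. Both arms were among the lower ones. Only 5 of the 400 were further down than hsa-miR-22*, of which hsa-miR-451, a miRNA of red blood cells, was the furthest (773 counts in Huh7 and 2 in Huh7-C), and 29 were further down than hsa-miR-22. Of 319 miRNAs passing the count minimum in both pairs, 10 (3.13%) were lower by at least 2-fold in both, hsa-miR-22* among them.

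The direction of the guide arm in the Hep3B pair depended on the library size. When scaled to the sum of miRNA counts, hsa-miR-22 was at 241 per 1000000 in Hep3B and 141 in Hep3B-C, and its log2 fold-change was -0.78 instead of 0.99. With TMM library sizes it was -0.43 and with DESeq2 size factors -0.19. hsa-miR-22* remained negative in this pair under each of these, between -2.79 and -2.20. Here too in the Huh7 pair, the guide arm was between -2.27 and -2.02, and the passenger arm was also negative under each. The same change of scale altered the background. With total miRNA counts, 108 of the 427 miRNAs of the Hep3B pair (25.3%) were lower and 71 (16.6%) higher by at least 2-fold. Of the miRNAs past 2-fold in either direction, lower ones thus made up 60.3% instead of the 6.69% with total reads. In the Huh7 pair this part went from 82.9% to 60.0%, with 90 of the 400 lower (22.5%) and 60 higher (15.0%).

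**Figure D2:**
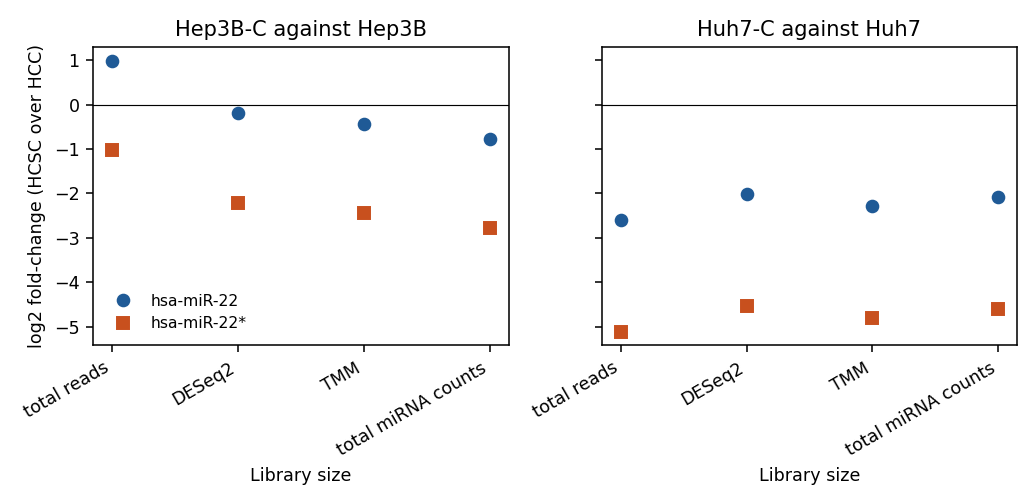
Log2 fold-change of hsa-miR-22 (circles) and hsa-miR-22* (squares), HCSC over HCC, with 4 choices of library size, in the Hep3B pair (left) and the Huh7 pair (right). The guide arm in the Hep3B pair passes from 0.99 with total reads to -0.78 with total miRNA counts, the passenger arm is below 0 in every case, and the distance between the arms is the same at every choice.

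The ratio of the arms needs no library size, because both are counted in the same library. The passenger arm held 14.8% of the counts of both arms in Hep3B (73 of 493, 95% Clopper-Pearson interval 11.8% to 18.3%). In Hep3B-C it held 4.13% (33 of 799, interval 2.86% to 5.75%). In Huh7 it held 17.3% (654 of 3782, interval 16.1% to 18.5%) and in Huh7-C 3.50% (19 of 543, interval 2.12% to 5.41%). The parent libraries thus gave like shares to each other, and so did the HCSC libraries at a lower value. The number of guide counts for each passenger count was 5.75 in Hep3B, 4.78 in Huh7, 23.2 in Hep3B-C and 27.6 in Huh7-C.

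**Figure D3:**
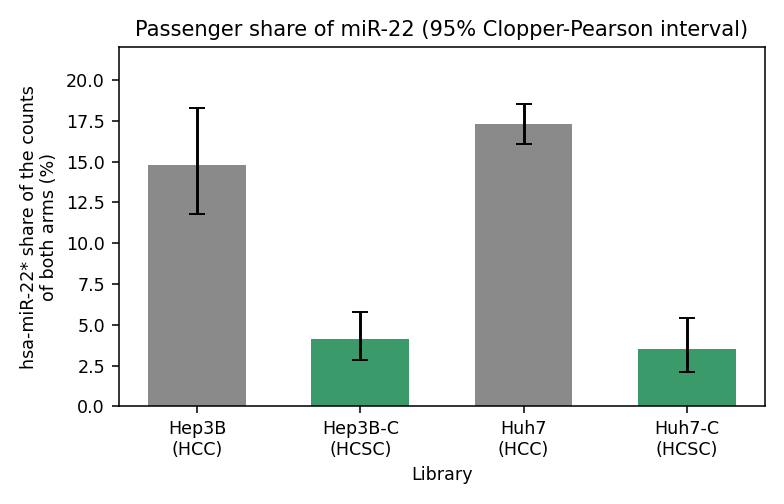
Share of hsa-miR-22* among the counts of both miR-22 arms in each library, in percent, with HCC libraries in grey and HCSC libraries in green. Bars start at 0 and error bars are 95% Clopper-Pearson intervals of 1 library each. The HCC libraries stand at 14.8% and 17.3%, and the HCSC libraries at 4.13% and 3.50%.

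The passenger to guide ratio changed by -2.01 on the log2 scale from Hep3B to Hep3B-C (exact conditional interval -2.68 to -1.37), or 4.03-fold. From Huh7 to Huh7-C it changed by -2.53 (interval -3.28 to -1.86), or 5.77-fold. These intervals overlap. Between the parent lines the ratio differed by 0.27 (Huh7 over Hep3B, interval -0.12 to 0.67), and between the HCSC lines by -0.25 (Huh7-C over Hep3B-C, interval -1.16 to 0.63). Both of these intervals contain 0, which does not show that the ratios were equal. With only 33 and 19 passenger counts in the HCSC libraries, a difference of up to about 2-fold between them was not detectable at this depth.

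Other hairpins give the background for this change. By name, 165 hairpins had a row for a guide arm and a row marked with an asterisk for the other arm. With 0.5 counts added to each count, and each arm at a mean of at least 10 counts over the pair, the ratio of 55 hairpins could be followed in the Hep3B pair and of 54 in the Huh7 pair. It was lower by at least 2-fold in Hep3B-C for 6 of the 55 (10.9%), among them miR-22, and higher for 8. It was lower in Huh7-C for 13 of the 54 (24.1%), again with miR-22 among them, and higher for 5. The median change was 0.01 for Hep3B-C over Hep3B and -0.43 for Huh7-C over Huh7. In 40 hairpins followed in both pairs, 3 (7.50%) were lower by at least 2-fold in both, namely miR-22, miR-589 and miR-15b.

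In the Hep3B pair, miR-15b had the largest drop of the ratio (-4.55), from a passenger share of 15.3% to 0.752%, followed by miR-589 (-2.71) and miR-22. For miR-15b the guide arm went from 403 to 2506 counts. The largest increases were those of miR-149 (4.04, on 3 and 19 passenger counts), miR-664 (1.79) and miR-136 (1.63). Passenger here means only the arm named with an asterisk. In Hep3B that arm was already the larger one for miR-664 (80.6%) and for miR-136 (55.6%, on 4 guide and 5 passenger counts). From Huh7 to Huh7-C, miR-589 had the largest drop (-3.11), from 58 to 7 passenger counts, followed by miR-22 and miR-222 (-2.47). miR-365 (1.44), miR-374b (1.44) and miR-18a (1.38) had the largest increases there. For miR-365 the asterisk arm was the larger one, with 91.9% of the counts in Huh7. The ratio of miR-589 rests on 7 or 8 passenger counts in the HCSC libraries, against 33 and 19 for miR-22. Across hairpins as a class, the median log2 fold-change of passenger arms was close to that of guide arms, at 1.21 and 0.99 from Hep3B to Hep3B-C and at -0.81 and -0.74 from Huh7 to Huh7-C. Taken within each hairpin, the median change of the ratio was 0.01 and -0.43. More hairpins thus had a lower than a higher ratio in Huh7-C. The arms of miR-589, whose passenger to guide ratio was lower in both pairs like that of miR-22, are shown for comparison (RefSeq, seed in capitals). They share no seed with miR-22.
hsa-miR-589: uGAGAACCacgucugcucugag
hsa-miR-589*: uCAGAACAaaugccgguucccaga

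Over the 60 hairpins whose arms had a mean of at least 10 counts over all 4 libraries, both HCSC ratios were below both HCC ratios in 12 (20.0%). The groups of miR-22 did not overlap in this sense, and the gap from the lower HCC ratio to the higher HCSC ratio, 2.00 on the log2 scale, was second after that of miR-589 (2.24). That of miR-15b was 1.77, and the fourth was that of miR-183 at 0.70. In the parent lines the passenger share of miR-22 was above the median hairpin, which stood at 5.51% in Hep3B and 7.21% in Huh7. Only 17 and 12 of the 60 hairpins had a higher share there. In the HCSC libraries it was near the median, which stood at 3.87% in Hep3B-C and 3.74% in Huh7-C, with 27 and 30 hairpins higher.

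**Figure D4:**
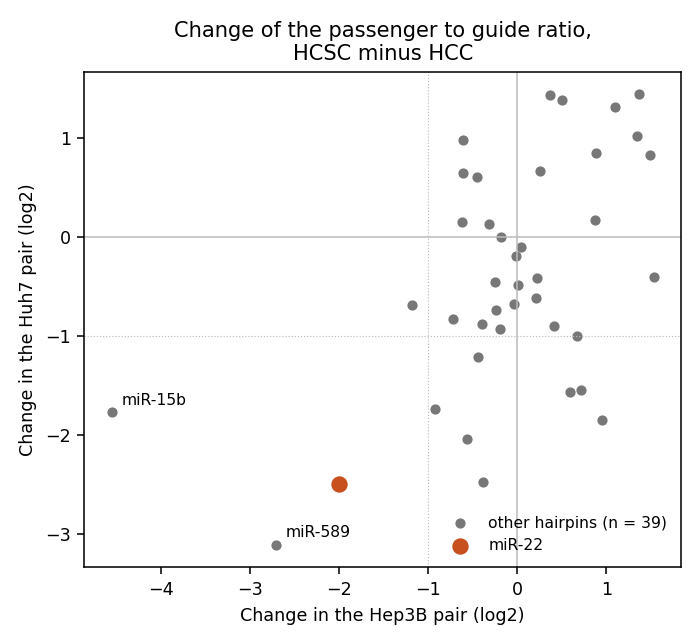
Change of the passenger to guide ratio (log2, HCSC minus HCC, 0.5 counts added) in the Hep3B pair (x axis) and the Huh7 pair (y axis) for the 40 hairpins followed in both. Each point is a hairpin, the large point is miR-22, and dotted lines mark a 2-fold drop. miR-22, miR-589 and miR-15b are the 3 points both left of the vertical and below the horizontal dotted line.

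The difference between the lines was large in the parents and small in the HCSCs. hsa-miR-22 was 11.8 times as high in Huh7 as in Hep3B (log2 difference 3.56, interval 3.41 to 3.71), and hsa-miR-22* 14.2 times as high (3.82, interval 3.47 to 4.19). Between Huh7-C and Hep3B-C, the log2 difference of hsa-miR-22 was -0.02 (interval -0.18 to 0.14) and that of hsa-miR-22* was -0.27 (interval -1.17 to 0.59). These differences use the same libraries as the pairs and are not separate evidence. With both arms added, miR-22 stood at 29.4 and 356 TPM in the parents Hep3B and Huh7, and at 51.7 and 50.7 TPM in Hep3B-C and Huh7-C. Of 445 miRNAs with a mean of at least 10 counts over the libraries, 155 differed by at least 8-fold between the parents, and 27 (6.07% of the 445) did so while the HCSC lines were under 2-fold apart, both arms of miR-22 among them. These limits were set after the values were seen. The median absolute log2 difference of all 445 was 2.10 between the parents and 1.66 between the HCSC lines. On total miRNA counts the parents were closer, by a log2 difference of 1.17 for hsa-miR-22 and 1.44 for hsa-miR-22*, so that the 8-fold limit was then not met.

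Across the 4 libraries, the miRNAs most like each arm were found by the root mean square distance of log2 TPM after each miRNA was centred on its own mean. The 444 other miRNAs had a median distance of 1.40 from hsa-miR-22. hsa-miR-671-5p was the nearest, at 0.12, with 6.73 and 93.3 TPM in Hep3B and Huh7, and 14.0 and 16.1 TPM in Hep3B-C and Huh7-C. With total reads it was higher in Hep3B-C and lower in Huh7-C than in the parent, like the guide arm. Its log2 fold-change in the Hep3B pair (1.05, with 0.5 counts added) also turned negative with the other library sizes, between -0.71 and -0.13. hsa-miR-1296 (0.19), hsa-miR-222* (0.27), hsa-miR-32* (0.33) and hsa-miR-148a* (0.34) came next, and of these hsa-miR-222* and hsa-miR-32* rest on few counts. Its own passenger arm was 152nd in this order, at a distance of 1.13.
hsa-miR-671-5p: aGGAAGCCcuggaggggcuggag

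The passenger arm had fewer close neighbours. The nearest were hsa-miR-130a (0.73), hsa-miR-589* (0.87), hsa-miR-29a (0.90), hsa-miR-222* (0.96) and hsa-miR-7-1* (0.96), against a median distance of 2.20, and hsa-miR-22 was 15th. hsa-miR-130a had 49 counts in Huh7 and only 2 or 3 in each other library, so it passed the count minimum through Huh7 alone. hsa-miR-7-1* had 49 counts in Huh7 and 12, 7 and 9 in Hep3B, Hep3B-C and Huh7-C, so it too needed Huh7 to pass. hsa-miR-29a was the only abundant one, at 106 and 1079 TPM in Hep3B and Huh7, and 66.3 and 168 TPM in Hep3B-C and Huh7-C. With 4 libraries of unequal miRNA content, these distances are a description only.

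Of 15 miRNAs often studied as lowered in hepatocellular carcinoma, 12 passed the count minimum in each pair. In the Hep3B pair 2 were lower and 7 higher by at least 2-fold, beside 4.68% and 65.3% of all miRNAs, with a median log2 fold-change of 1.29 beside 1.36. The median of the list turned to -0.47 with total miRNA counts and -0.12 with TMM, beside -0.40 and -0.05 for all miRNAs. In the Huh7 pair 7 were lower and 1 higher, beside 35.2% and 7.25% of all miRNAs, with a median of -1.16 beside -0.65. hsa-miR-22 itself, at 0.99 and -2.59, was below both medians. Past 2-fold in both pairs (log2 with 0.5 counts added), hsa-miR-29c (-1.46 and -1.20) and hsa-miR-199a-3p (-1.24 and -2.44) were lower in both, as hsa-miR-22* was. hsa-miR-375 (3.30 and 1.36) was higher in both. hsa-miR-122, the main miRNA of hepatocytes (8.68 and -1.77), hsa-miR-101 (1.27 and -1.27) and hsa-miR-195 (2.37 and -1.13) were higher in Hep3B-C and lower in Huh7-C with total reads. Of these named miRNAs, only hsa-miR-101 in the Hep3B pair changed direction with another library size, to -0.49 with total miRNA counts and -0.14 with TMM. In the Huh7 pair, hsa-miR-29c (-0.88 to -0.62), hsa-miR-101 (-0.95 to -0.70) and hsa-miR-195 (-0.81 to -0.55) were under 2-fold with each other size. hsa-miR-195 was also under 2-fold in the Hep3B pair with total miRNA counts (0.61) and TMM (0.96). hsa-miR-199a-3p, hsa-miR-375 and hsa-miR-122 stayed past 2-fold in both pairs.

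The miRNAs nearest to MIR22 in the RefSeq table, MIR132 and MIR212, lie about 336 kb away on chromosome 17. hsa-miR-132, known from neurons, had 5 counts in Hep3B (0.298 TPM) and 40 in Hep3B-C (2.59 TPM). It had 70 counts in Huh7 (6.59 TPM) and 104 in Huh7-C (9.71 TPM), and was thus higher in each HCSC library than in the parent, where hsa-miR-22* was lower. With total reads, hsa-miR-22 was also higher in Hep3B-C (0.99) but lower in Huh7-C (-2.59). Of all miRNAs, 65.3% were higher by at least 2-fold in Hep3B-C and 7.25% in Huh7-C. hsa-miR-132* had 0, 2, 6 and 6 counts in Hep3B, Hep3B-C, Huh7 and Huh7-C. hsa-miR-212 had 9 counts in Hep3B-C and 0 in the other 3 libraries, which allows a level of up to 0.179 TPM in Hep3B and up to 0.282 TPM in Huh7.

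Marker miRNAs of other cells were counted beside these values. Of 6 liver miRNAs, between 5 and 6 were detected in each library, and their levels summed to between 16686 TPM (Hep3B) and 139807 TPM (Huh7), although hsa-miR-122 stood at only 23.7 TPM in Hep3B. Of 6 blood miRNAs the summed level was 73.4 TPM in Huh7 and between 0.0648 and 0.747 TPM in the other libraries. hsa-miR-451 made up nearly all of the Huh7 sum, and hsa-miR-144 and hsa-miR-150 were at 0 in every library. hsa-miR-486-5p had 4 counts in Huh7 and 6 in Huh7-C, hsa-miR-142-5p had 3 and 0, and hsa-miR-223 was at 0 in both. The Huh7 library, in which hsa-miR-22 and hsa-miR-22* were highest, was therefore also the one with the most hsa-miR-451. The other blood miRNAs had few or no counts there, and any part of blood RNA in the miR-22 values was not tested. Of 4 mesenchymal miRNAs, 2 or 3 were detected per library, with a summed level from 1.77 TPM in Huh7-C to 111 TPM in Hep3B-C. hsa-miR-145 was at 0 in Hep3B, Huh7 and Huh7-C and had 5 counts (0.324 TPM) in Hep3B-C. hsa-miR-199a-5p and hsa-miR-214 were at 0 in Hep3B-C, so nearly all of the sum there was hsa-miR-143. Of 5 neural and muscle miRNAs, 3 or 4 were detected, and hsa-miR-124 was at 0 in every library. Their summed level was 10.1 TPM in Hep3B, 57.0 TPM in Hep3B-C, 925 TPM in Huh7 and 1072 TPM in Huh7-C. In bulk libraries, fewer cells with an RNA and less of it per cell cannot be told apart, and the HCSC state cannot be told apart from the library that carries it.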

How the data were processed

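Small RNA from 1 library each of Hep3B, Hep3B-C, Huh7 and Huh7-C was sequenced on an Illumina Genome Analyzer II. The authors removed contaminants and reads under 18 nt, mapped what was left with SOAP to a build older than the one used for positions here, set aside other small RNA classes and assigned the remainder to miRBase release 17. The deposited values are raw read counts of 1733 mature miRNAs, without normalization. Mismatch settings and the treatment of reads fitting several miRNAs were not given in the sources used here. Redundant reads were also filtered by the authors, and no molecular identifiers are described, so reads may not be independent molecules.

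TPM was computed from these counts and the total reads the study gives per library. Log2 fold-changes of the arms used no added count, and those of all miRNAs and hairpins used 0.5 counts added, with a mean of at least 10 counts over the pair. Intervals (95%) were exact Poisson for levels, Clopper-Pearson for shares, exact binomial for fold-changes and exact conditional for arm ratios. A 2-fold change was the limit for counting a miRNA or hairpin, and a level of 3 counts the limit that a count of 0 allows. No p-value was computed, since each cell population had 1 library and the arms were chosen on these counts. Alternatives were total miRNA counts, TMM (edgeR 4.0.16) or DESeq2 1.42.0 size factors as library sizes, other count minimums, 0.5 counts added to the arms, and hairpins named by 5p and 3p. The miRNAs named were the 5 nearest to each arm, the 3 hairpins with the largest change of ratio per direction and pair, 2 lists, and markers of 4 kinds of cells. Members and lists were chosen with earlier results of these data known. The intervals and the 2-fold count were tested on simulated data. The simulated counts held counting error only, with total reads as the true library size. They therefore say nothing about variation between libraries or unequal miRNA content. Sequences and positions come from RefSeq (GRCh38.p14) and GENCODE release 29, matched by name. The arms were folded with RNAduplex 2.7.2. Python 3.11.15, scipy 1.17.1 and R 4.3.3 were used.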

Additional observations from a re-analysis of the deposited data

Results flagged for a closer look

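hsa-miR-22 was flagged because the pairs moved in opposite directions. From Hep3B to Hep3B-C its log2 fold-change was 0.99, and from Huh7 to Huh7-C -2.59, with total reads as library sizes. The medians of all miRNAs also had opposite signs, at 1.36 and -0.65, so the signs alone were not particular to hsa-miR-22. With 1 library per population its difference between the pairs was not tested. Its sign in the Hep3B pair was negative with each other library size tried.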

How the results depend on the processing

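The arm shares and arm ratio changes do not involve a library size, and with 0.5 counts added each stayed within its counting interval. The fold-changes of the arms depended on the library size. With total miRNA counts, TMM sizes and DESeq2 size factors in turn, the log2 fold-change of hsa-miR-22 in the Hep3B pair was -0.78, -0.43 and -0.19, against 0.99 with total reads. That of hsa-miR-22* was -2.79, -2.44 and -2.20 there. In the Huh7 pair hsa-miR-22 was at -2.07, -2.27 and -2.02, and hsa-miR-22* stayed within its interval. Between the parent lines hsa-miR-22 was at 1.17, 2.09 and 2.11, and hsa-miR-22* at 1.44, 2.36 and 2.38. Between the HCSC lines, where the differences are near 0, the sign turned for hsa-miR-22 with TMM (0.25) and DESeq2 (0.29), and for hsa-miR-22* with DESeq2 (0.037).

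With the same 3 sizes in the same order, 108, 76 and 61 miRNAs were lower by at least 2-fold in the Hep3B pair (20 with total reads), and 71, 99 and 114 higher (279). In the Huh7 pair 90 and 84 were lower with total miRNA counts and DESeq2 (141), and 60, 44 and 63 higher (29). A mean of at least 1 count gave 53 lower and 456 higher from Hep3B to Hep3B-C, and 251 and 73 for the other pair. A mean of at least 50 counts gave 13 and 171, and 77 and 15. The list of miRNAs studied as lowered in HCC had medians of -0.47, -0.12 and 0.11 from Hep3B to Hep3B-C, beside -0.40, -0.05 and 0.18 for all miRNAs. From Huh7 to Huh7-C its medians were -0.64, -0.84 and -0.59, beside -0.13, -0.34 and -0.08 for all miRNAs. miRNAs far apart in the parents and close in the HCSCs numbered 9, 14 and 14 (27), an alternative chosen after seeing the data, as were the other library sizes for named miRNAs other than the arms.

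For hairpins in the Hep3B pair, a lower ratio was found for 11 with a mean of 5 counts, for 1 with a mean of 50, which was miR-22, and for 13 with 5p and 3p names (6). Higher ratios numbered 5 with a mean of 50 and 13 with 5p and 3p names (8). In the Huh7 pair, 5 were lower and 3 higher with a mean of 50 counts, and 21 and 8 with 5p and 3p names (13 and 5). In the Hep3B and Huh7 pairs, 3 and 2 hairpins fell further than miR-22 with a mean of 5 counts, 4 and 2 with 5p and 3p names, and 0 and 0 with a mean of 50. That last minimum leaves out hsa-miR-15b* in the Hep3B pair and hsa-miR-589* in both, which had fallen further, and hsa-miR-22* passes it through the parent libraries, so nothing is read from it. The 5 miRNAs nearest to each arm were the same with total miRNA counts, since a library size shifts every miRNA alike. A comparison of HCSCs with HCC cells over both lines, with the line as a block, was not run. The 33 and 19 passenger counts of the HCSC libraries set the width of the ratio intervals.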
